A study of Mus musculus with 13 samples.

Results

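The genes described here are 10 of the ATF4 stress pathway: Atf4, Atf5, Ddit3, Trib3, Ppp1r15a, Asns, Psat1, Phgdh, Ddit4 and Sesn2. They were taken by symbol from a table of read counts of mouse brown adipose tissue. The 10 symbols matched 11 of its 55357 gene identifiers, because Ddit3 was listed under 2. A filter on low counts left 11073 genes for testing, and 9 of the members passed it. Phgdh did not pass, and the second Ddit3 identifier had 0 counts. The 4 groups were knockout mice kept at 4 °C for 6 h (KO cold, 4 libraries), control mice kept in the same cold (control cold, 4), knockout mice at room temperature (KO RT, 3) and control mice at room temperature (control RT, 2). The knockout, labelled Stim1/2_Adp-Cre, removes Stim1 and Stim2, which encode calcium sensors of the endoplasmic reticulum (ER). Its Cre is driven by the adiponectin promoter, which is active in adipocytes, so other cells of the tissue keep both genes. The control label names the floxed alleles without Cre, and the study's design text calls these mice wild type. The sources used here give no age, sex or strain. Each library has a name code of its own, but the labels do not say whether each code stands for a separate animal. The p-values therefore cover the spread between libraries only, and part of it may be technical.

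ATF4 is the main transcription factor of the integrated stress response. Kinases that sense ER stress, lack of amino acids, mitochondrial stress or viral RNA phosphorylate the translation factor eIF2, which slows most protein synthesis but favours translation of the Atf4 mRNA. ATF4 then turns on genes of amino acid synthesis, amino acid import and tRNA charging, and genes that feed back on the response. In brown fat the response has been described under mitochondrial stress, where the hormone FGF21 is among its products. The libraries count mRNA and hold no measure of eIF2 phosphorylation or of ATF4 protein.

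The libraries were made with a kit that reads a tag near the 3′ end of each mRNA, and they held 1570684 to 2016178 counts (median 1800685). Levels are in CPM (the counts scaled to a common library size), and numbers after a group name are replicates in the order of the labels. Differences are log2 fold changes ± standard error, and q is the adjusted p of edgeR's quasi-likelihood test over the 11073 genes. A gene rose, fell or was called where q was under 0.05. Stim1 was at 81.4, 78.8, 96.8 and 108 CPM in the KO cold libraries, 129, 120.5, 134 and 114 CPM in the control cold libraries, 73.95, 61.97 and 86.1 CPM in the KO RT libraries and 149.9 and 126 CPM in the control RT libraries, and every KO library had less Stim2, as it had less Stim1, than any control library of its temperature. At RT 16.6% of all tested genes separated the genotypes in one direction or the other. KO against control was called for Stim2 in cold (-0.88 ± 0.24, q = 0.0382, and in 11 of 18 alternative settings). It was not called for Stim1 in cold (-0.45 ± 0.13, q = 0.0570) or at RT (-0.90 ± 0.17, q = 0.349), or for Stim2 at RT (-0.59 ± 0.31). The adipocyte markers Ucp1, Cidea, Adipoq, Fabp4, Plin1, Lipe, Pparg, Elovl3 and Dio2 together stood at 22091 to 23528 CPM in KO cold, 23576 to 27402 CPM in control cold, 16469 to 18713 CPM in KO RT and 16467 to 18774 CPM in control RT (9 genes, none at 0 over a group). Every cold library thus lay above every RT library in this sum, and in cold every KO library lay below every control library. The single genes did not all share these directions. In KO against control in cold 5 of the 9 were positive and 4 negative (median 0.10), with 1 called higher and 0 lower. In cold against RT 3 rose and 0 fell in KO, and 3 rose and 1 fell in control. The part of adipocyte content in the differences of the members was not tested. Lymphocyte markers summed to at most 11.5 CPM, with 1 of the 9 genes at 0 in KO cold, 2 in control cold, 2 in KO RT and 3 in control RT. Summed skeletal muscle markers (9 genes, none at 0 over a group) were at 1.22 to 230.1 CPM in KO cold, 2.47 to 174 CPM in control cold, 60.4 to 1070.3 CPM in KO RT and 21.1 to 1786 CPM in control RT. In cold against RT 2 of these 9 fell in KO and 5 in control, and their part in the differences between cold and RT was not tested. In bulk tissue, fewer cells of a type and less RNA per cell cannot be told apart.

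After 6 h of cold most of the pathway stood higher than at room temperature in both genotypes. In KO mice 7 of the 9 tested members rose, Atf4, Atf5, Ddit3, Trib3, Ppp1r15a, Ddit4 and Sesn2, where 9.43% of all tested genes rose, and 0 fell, where 9.45% fell. In control mice 6 of 9 rose, Atf4, Atf5, Trib3, Asns, Ddit4 and Sesn2, where 12.7% of all tested genes rose, and 0 fell, where 12.6% fell. Beside the KO count, 5 of 8 fibroblast markers, Col1a1, Col1a2, Col3a1, Lum and Pdgfra, fell in cold in KO (median of the 8, -1.13), and the median of the 8 was -0.10 in control; the part of this in the members' differences was not tested. The median log2 fold change of the 9 members was 1.61 in KO and 1.45 in control, against -0.01 and -0.02 over all tested genes. The members were chosen with earlier results of these data known, so the values over all tested genes are given as a description only. Both counts of risen members depended on single room temperature libraries. In KO 4 members rose without KO RT 1, where calls over all tested genes also dropped, from 2090 to 1215. The control count dropped without control RT 1, which leaves 1 control RT library. The control log2 fold changes were then 1.05 for Atf4, 3.37 for Trib3, 0.83 for Asns, 1.72 for Ddit4 and 0.84 for Sesn2. Between genotypes, edgeR called 0 of the 9 members in cold, where it called 5.93% of all tested genes (2.44% higher and 3.49% lower), and 0 of 9 at RT, where it called 0%. DESeq2 also called 0 members in both, and 2 members in cold and 0 at RT had an unadjusted p under 0.05. In the difference of the cold responses between genotypes edgeR and DESeq2 called 0 of 9, with 1 unadjusted p under 0.05, and edgeR called 0.0181% of all tested genes.

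**Figure D1:**
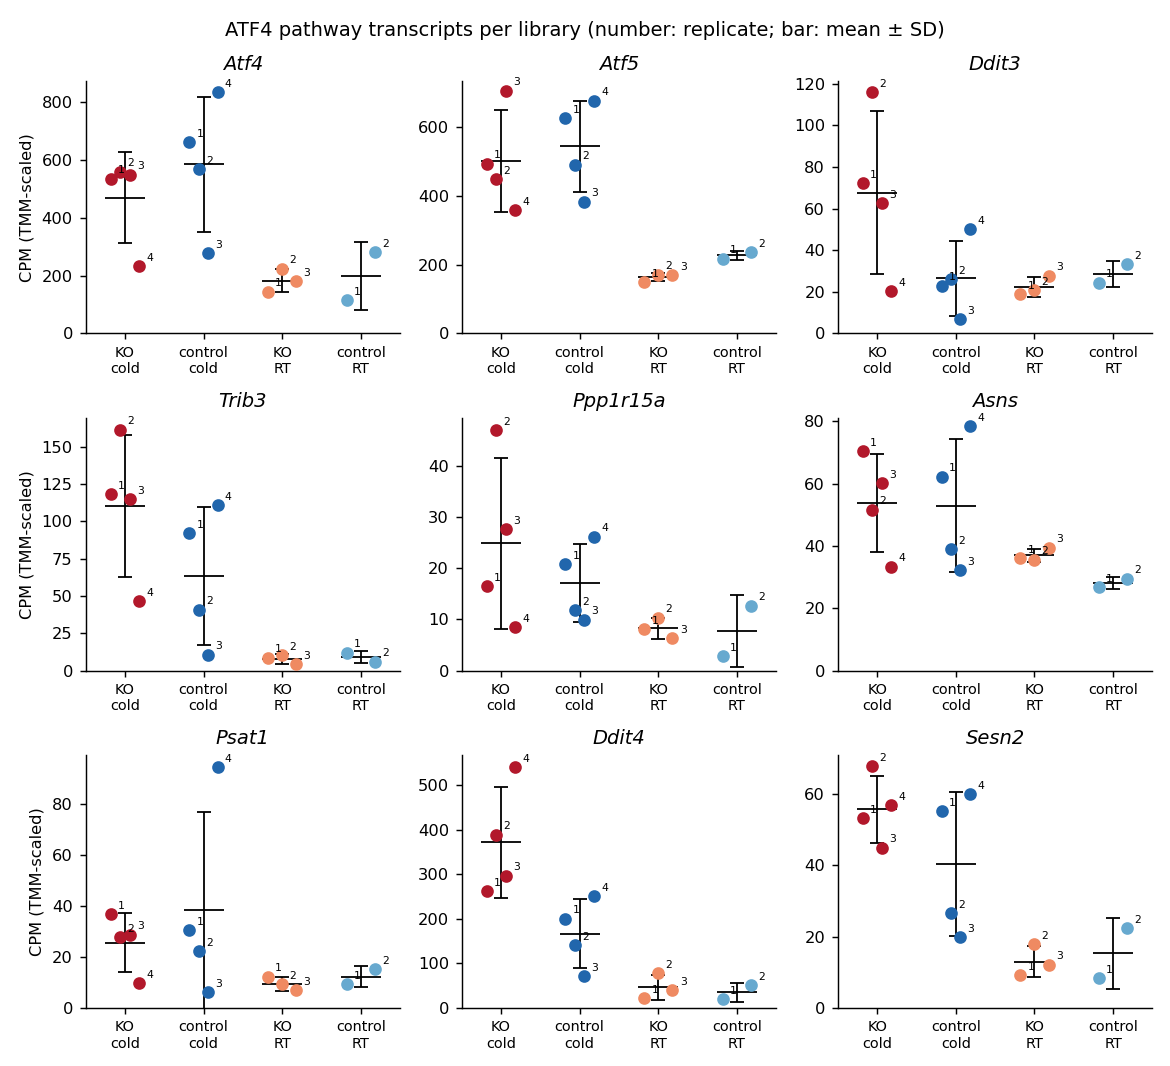
Level of each tested member in CPM (linear axis from 0) in every library of KO cold, control cold, KO RT and control RT. Points are libraries with their replicate number, and bars are mean ± SD (n = 4, 4, 3 and 2). Atf5 and Ddit4 stand higher in every cold library than in every RT library of their genotype, as 15.8% of all tested genes do in KO and 19.8% in control. Within the cold groups KO cold 4 and control cold 3 are low for most members.

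Among the transcription factors, Atf4 itself and Atf5 rose in cold in both genotypes, and Ddit3 was called in KO and not in control, without a called difference between the 2 responses. Atf4 (ENSMUSG00000042406.9, chromosome 15) was at 535, 558, 548 and 233 in KO cold, at 661, 567, 276 and 834 in control cold, at 145, 223 and 180.03 in KO RT and at 114 and 280.2 in control RT (all CPM). KO cold 4 and control cold 3 were far below the other cold libraries. All KO cold libraries nevertheless exceeded all KO RT libraries, as in 15.8% of all tested genes, while control cold 3 fell just under control RT 2. The difference between cold and RT was 1.36 ± 0.36 in KO (q = 0.0148) and 1.58 ± 0.43 in control (q = 0.0129). Without KO RT 1 the KO value had q = 0.0779, and without control RT 1 the control value had q = 0.186. Between genotypes Atf4 differed by -0.32 ± 0.32 in cold (q = 0.635, 95% interval -0.99 to 0.36) and by -0.10 ± 0.43 at RT (q = 1), with overlapping groups at both temperatures.

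Atf5 (ENSMUSG00000038539.16, chromosome 7), a related factor known for the mitochondrial unfolded protein response, was at 493, 449, 705 and 357 CPM in the KO cold libraries, 625, 491, 382 and 676 CPM in the control cold libraries, 149, 170.4 and 168 CPM in the KO RT libraries and 217 and 236 CPM in the control RT libraries. Its RT groups were tight, and each cold library exceeded each RT library, as cold libraries did within KO in 15.8% and within control in 19.8% of all tested genes. Atf5 rose 3.08-fold in KO (1.62 ± 0.21, q = 0.000100) and 2.398-fold in control (1.26 ± 0.24, q = 0.00156), and both calls held in all 18 alternative settings. The 3 KO RT libraries lay under both control RT libraries (-0.48 ± 0.25, q = 1), a separation, in one direction or the other, that 16.6% of all tested genes showed between these groups. In cold the genotypes overlapped (-0.12 ± 0.19, q = 0.780, 95% interval -0.51 to 0.28).

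Ddit3 (ENSMUSG00000025408.16, chromosome 10) encodes CHOP, a factor linked to cell death under lasting ER stress. It was at 72.2, 116, 62.4 and 20.3 in KO cold, at 23.04, 25.9, 6.81 and 50.1 in control cold, at 18.7, 20.7 and 27.8 in KO RT and at 24.4 and 33.1 in control RT (all CPM). KO cold 1, 2 and 3 were above every other library, whereas KO cold 4 lay within the RT range and control cold 3 below it. Cold against RT gave 1.596 ± 0.49 in KO (q = 0.0300) and -0.13 ± 0.57 in control (q = 0.893). The KO call was lost in 8 of 18 alternatives: DESeq2, the replicate block, without KO cold 1, 2 or 3, and without any 1 KO RT library, with q up to 0.115. The difference between both cold responses was 1.72 ± 0.75 and did not pass (unadjusted p = 0.0345, q = 0.555). In cold, Ddit3 averaged 67.7 ± 39.2 CPM in KO and 26.5 ± 17.9 CPM in control (SD, n = 4 each), a difference of 1.38 ± 0.44 that missed the threshold (q = 0.0775). It passed without KO cold 4 (q = 0.0172) or without control cold 4 (q = 0.0282), with q up to 0.253 over the 18 alternatives. It also passed without a filter on low counts (q = 2.96e-11). There the log2 fold change stayed at 1.38, so that q does not reflect a larger difference. The second Ddit3 identifier, ENSMUSG00000116429.2, had 0 counts in 13 libraries, which allows up to 0.131 CPM over all of them (3 counts, counting error only). In GENCODE M21 the last 68 bases of Ddit3 overlap Mars1, the methionyl-tRNA synthetase gene, on the other strand. Whether strand was used in counting is not given in the sources used here, so their tags cannot be told apart there. In cold, KO against control gave -0.34 ± 0.21 for Mars1 (q = 0.405).

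The promoters of the members were searched for 3 motifs, on both strands: TGATGNAA, the core of the composite element that ATF4 binds with C/EBP factors, TGACGTCA, the cAMP response element, and the ER stress response element, CCAAT and CCACG with any 9 bases between them. The windows ran from 250 bases before to 50 after each start in RefSeq (GRCm38.p6), and all 10 genes had at least 1, for 12 in all. TGATGNAA was found in windows of 2 genes, Asns and Trib3 (3.97% of 32851 windows hold it), TGACGTCA in that of 1 gene, Ppp1r15a (1.79%), and the ER stress response element in windows of 0 genes (0.119%). The Trib3 match lay after the RefSeq start, on the other strand. The matches before a start are shown with their flanks, 5′ to 3′ along the gene, with the motif in capitals; the Asns bases are chr6:7693214-7693243 and the Ppp1r15a bases chr7:45526269-45526298, both on the minus strand.
Asns: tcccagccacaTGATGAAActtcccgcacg
Ppp1r15a: gagaccccgcctctccggTGACGTCAgcac
The capitals end 16 bases before the RefSeq start in Asns and 5 bases before it in Ppp1r15a. In GENCODE M21 Asns begins further upstream, at base 7693254, so the printed Asns bases lie within that gene. Trib3 begins further downstream there, at base 152344032, so its match lies before that start. Before and after therefore depend on the annotation for both genes with TGATGNAA. A match says only that these letters are present.

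The feedback regulators were Trib3, whose product binds ATF4 and restrains it, and Ppp1r15a, which encodes GADD34, the subunit that directs a phosphatase to eIF2. Trib3 (ENSMUSG00000032715.10, chromosome 2) was at 118, 161, 115 and 46.3 CPM in the KO cold libraries, 92.2, 40.8, 10.5 and 111 CPM in the control cold libraries, 8.61, 10.3 and 4.199 CPM in the KO RT libraries and 11.96 and 6.03 CPM in the control RT libraries. Its fold change was the largest of the 9 members in each genotype, 14.3-fold in KO (3.83 ± 0.64, q = 0.000618) and 6.78-fold in control (2.76 ± 0.75, q = 0.0130). Control cold 3, at 10.5 CPM, was inside the RT range, so the control groups overlapped, and the control call was lost without control RT 1 (q = 0.0679) or control RT 2 (q = 0.0773). The KO call held in all 18 alternatives. In cold Trib3 averaged 110.1 ± 47.5 CPM in KO and 63.6 ± 46.1 CPM in control (SD, n = 4 each), which did not pass (0.80 ± 0.45, q = 0.340, 95% interval -0.15 to 1.75) except without a filter on low counts (q = 4.20e-05). Without the filter the log2 fold change was 0.81, so that q does not reflect a larger difference.

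Ppp1r15a (ENSMUSG00000040435.13, chromosome 7), the member with the TGACGTCA match, was at 16.5, 46.95, 27.6 and 8.47 in KO cold, at 20.7, 11.7, 9.91 and 26.1 in control cold, at 8.104, 10.3 and 6.299 in KO RT and at 2.76 and 12.7 in control RT (all CPM), from 6 to 90 counts a library. The KO groups overlapped through KO cold 4. The cold difference was 1.61 ± 0.53 in KO (q = 0.0419) and 1.22 ± 0.65 in control (q = 0.181). The KO call was lost in 7 of 18 alternatives: the replicate block, without control cold 1, KO cold 2 or KO cold 3, and without any 1 KO RT library, with q up to 0.158. Genotypes overlapped in cold (0.56 ± 0.44, q = 0.522) and at RT (0.18 ± 0.73, q = 1). The last 500 bases of Ppp1r15a overlap Tulp2 on the other strand in GENCODE M21, and Tulp2 had 0 counts in all 13 libraries. As the use of strand in counting is not given, tags of Ppp1r15a and Tulp2 cannot be told apart there. The part of this overlap in the low counts of Ppp1r15a was not tested.

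Among the enzymes of amino acid synthesis, Asns was called in control and not in KO, without a called difference between the responses, Psat1 was not called and Phgdh was too low to test. Asns (ENSMUSG00000029752.13, chromosome 6), whose product makes asparagine from aspartate and whose promoter holds a TGATGNAA match, was at 70.4, 51.6, 60.2 and 33.3 CPM in the KO cold libraries, 62.2, 38.9, 32.2 and 78.4 CPM in the control cold libraries, 35.96, 35.6 and 39.4 CPM in the KO RT libraries and 26.7 and 29.5 CPM in the control RT libraries. At RT the 3 KO libraries lay above both control libraries (0.40 ± 0.34, q = 1), where 16.6% of all tested genes separated these groups in one direction or the other. All control cold libraries exceeded both control RT libraries, as in 19.8% of all tested genes (0.91 ± 0.32, q = 0.0491), but KO cold 4 fell under the KO RT libraries (0.54 ± 0.27, q = 0.181). The difference between both cold responses was -0.37 ± 0.42 (q = 0.868, 95% interval -1.26 to 0.52). The control call stood at the threshold and was lost in 11 of 18 alternatives, with q up to 0.250: with only the compared groups in the fit, with the replicate block, and without control cold 1 or 4, control RT 1 or 2, KO cold 2 or 3, or any 1 KO RT library. In cold the genotypes had nearly equal means, 53.9 ± 15.7 CPM in KO and 52.9 ± 21.3 CPM in control (SD, n = 4 each), with a 95% interval of -0.49 to 0.55 for the log2 fold change.

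Psat1 (ENSMUSG00000024640.10, chromosome 19), the aminotransferase of serine synthesis, was at 36.7, 27.7, 28.7 and 9.59 in KO cold, at 30.5, 22.2, 6.19 and 94.6 in control cold, at 12.2, 9.18 and 6.82 in KO RT and at 9.196 and 15.1 in control RT (all CPM). The highest control cold library was 15.3 times the lowest, the widest range of any tested member in any group. The cold difference was 1.44 ± 0.66 in KO (q = 0.144) and 1.66 ± 0.72 in control (q = 0.104), and in cold KO against control gave -0.56 ± 0.52 (q = 0.603), which turned to 0.37 without control cold 4. The cold difference of Psat1 passed in KO without control cold 4 (q = 0.0387) or with only the compared groups (q = 0.0135), and in control without control cold 3 (q = 0.0194). It also passed in both genotypes without a filter on low counts, where the log2 fold changes hardly moved (1.46 in KO and 1.67 in control). Phgdh (ENSMUSG00000053398.12, chromosome 3), the first enzyme of serine synthesis, had 55 counts in all and 0 to 8 a library. Its libraries stood at 0.612, 2.09, 4.500 and 0 in KO cold, at 1.73, 1.24, 1.86 and 2.82 in control cold, at 3.55, 4.02 and 2.100 in KO RT and at 1.84 and 4.82 in control RT (all CPM), and the 0 in KO cold 4 allows up to 1.69 CPM. From the summed counts, 13 in KO cold and 18 in KO RT gave a ratio of 0.572 (95% counting interval 0.258 to 1.23), and 12 in control cold and 12 in control RT a ratio of 0.6004 (0.247 to 1.46). No difference in Phgdh was detectable at these counts.

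Ddit4 and Sesn2 encode stress proteins that restrain the growth kinase complex mTORC1. Ddit4 (ENSMUSG00000020108.5, chromosome 10), also named REDD1, was at 263, 389, 297 and 541 CPM in the KO cold libraries, 200.4, 141, 71.2 and 251 CPM in the control cold libraries, 21.8, 77.5 and 38.8 CPM in the KO RT libraries and 18.9 and 50.02 CPM in the control RT libraries. KO cold 4, which was low for most members, was the highest library for Ddit4. Cold libraries exceeded RT libraries without overlap in both genotypes, as in 15.8% of all tested genes in KO and 19.8% in control. Ddit4 rose 8.16-fold in KO (3.03 ± 0.45, q = 0.000262) and 4.92-fold in control (2.30 ± 0.54, q = 0.00542). The KO call held in all 18 alternatives and the control call was lost without control RT 1 (q = 0.101). In cold, Ddit4 was the 1 member whose genotypes did not overlap, with all KO libraries above all control libraries, a pattern seen in that direction in 6.28% of all tested genes. Means were 372 ± 125 CPM in KO cold against 166 ± 77.6 CPM in control cold (SD, n = 4 each), and the difference of 1.17 ± 0.36 missed the threshold (q = 0.0696). It passed with only the cold groups in the fit (q = 0.0370), with the replicate block (q = 0.0324), and without control cold 4 (q = 0.0422), control RT 1 (q = 0.0464) or control RT 2 (q = 0.0478), with q from 6.13e-15 without a filter on low counts to 0.196 over the 18 alternatives. Without the filter the log2 fold change of Ddit4 in cold was 1.18, so that low q does not reflect a larger difference. At RT Ddit4 was at 0.44 ± 0.56 (q = 1), and the difference between both cold responses was 0.73 ± 0.67 (q = 0.840).

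Sesn2 (ENSMUSG00000028893.9, chromosome 4), a leucine sensor, was at 53.2, 67.8, 45.00 and 57.00 in KO cold, at 55.3, 26.6, 19.8 and 60.001 in control cold, at 9.12, 17.8 and 12.1 in KO RT and at 8.28 and 22.3 in control RT (all CPM). The 4 KO cold libraries lay closely together, while control cold 2 and 3 stood well below control cold 1 and 4. Sesn2 rose 4.32-fold in KO (2.11 ± 0.38, q = 0.00109), in all 18 alternatives, and 2.72-fold in control (1.45 ± 0.44, q = 0.0248). The control call was lost with only the compared groups in the fit (q = 0.0801) and without control cold 1 (q = 0.0649), control cold 4 (q = 0.0578) or control RT 1 (q = 0.309). In cold KO against control gave 0.47 ± 0.30 (q = 0.417).

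**Figure D2:**
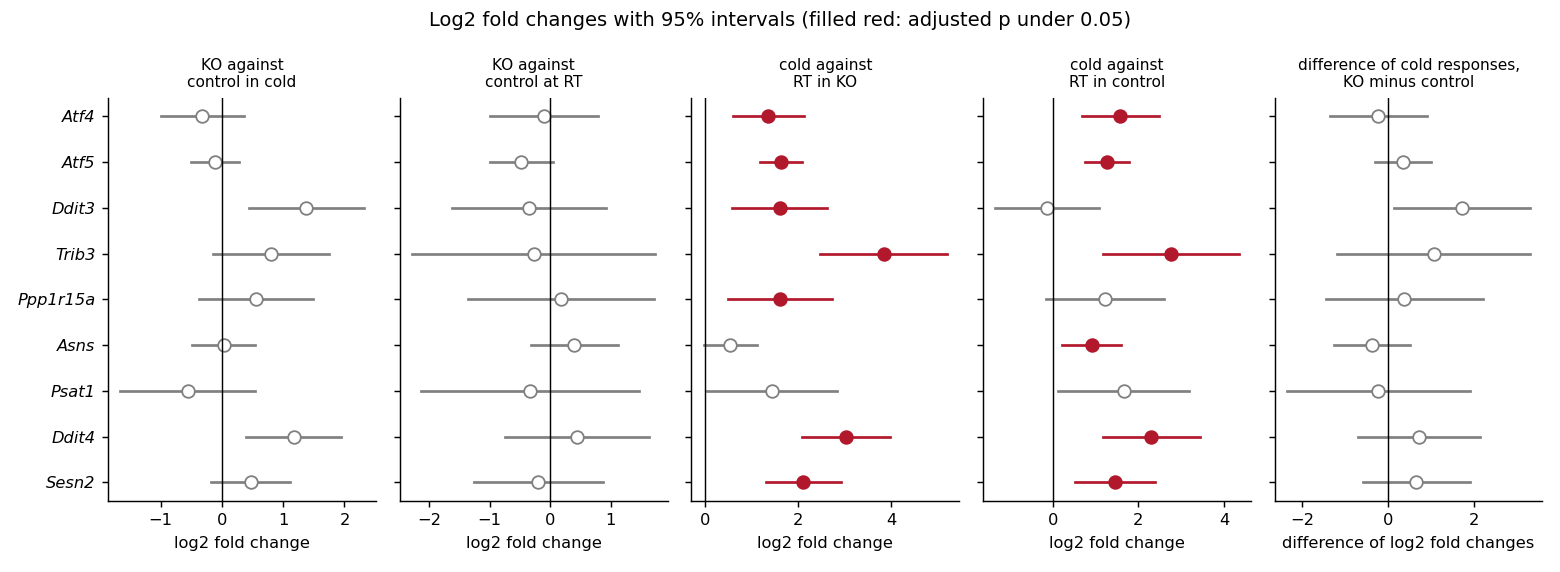
Log2 fold change of each tested member in 5 contrasts with its 95% interval; filled red points passed the threshold and the vertical line marks 0, and the horizontal scales differ between panels. Red points lie to the right of 0 in the cold against RT panels, 7 in KO and 6 in control, and the intervals of Ddit3 and Ddit4 lie above 0 in KO against control in cold without passing after adjustment.

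Between genotypes in cold the 9 log2 fold changes ran from -0.56 for Psat1 to 1.38 for Ddit3, with a median of 0.47 against -0.01 over all tested genes. The 5 members between 0.47 and 1.38 were Ddit3, Ddit4, Trib3, Ppp1r15a and Sesn2. Atf4, Atf5, Asns and Psat1 lay between -0.56 and 0.03. At RT they ran from -0.48 to 0.44 with a median of -0.19. In the difference of cold responses they ran from -0.37 to 1.72. The genes edgeR called there, Hspa4l and Pcsk6, named after their values were seen, are no members. Among the 11073 genes, 913 had an unadjusted p under 0.05 in that contrast, and DESeq2 called 29. At RT 346 genes had an unadjusted p under 0.05, and DESeq2 called 3.

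The spread within the cold groups was shared by the members. Control cold 3 was the lowest library of its group for 9 of 9 tested members, and control cold 4 was the highest for 9 of 9. Over all tested genes, control cold 3 was the lowest in 23.6% and control cold 4 the highest in 27.7%. KO cold 4 was the lowest of its group for 7 of 9 members, all but Ddit4 and Sesn2, and for 27.3% of all tested genes. On average over the 9 members, control cold 3 lay 1.11 log2 units below its group mean (value -1.11), control cold 4 lay 0.89 above, and KO cold 4 lay 0.70 below (value -0.70). Of the control RT libraries, control RT 1 was the lower one for 8 of 9 members and for 49.2% of all tested genes. KO cold 4 held 1800685 counts, the median depth, control cold 3 held 1728312, and control cold 4 held 1570684, the fewest of the 13 libraries. The share of mitochondrial counts was 10.1% in KO cold 4, the lowest of its group, 11.7% in control cold 3, 13.4% in control cold 4, the highest of all, and 9.43% in control RT 1, the lowest of all. Summed erythrocyte markers (5 genes, none at 0 over a group) were at 1429 to 3303 CPM in KO cold, 1333 to 2839 CPM in control cold, 1880.4 to 3175 CPM in KO RT and 1075 to 2518 CPM in control RT. They were highest of their groups in KO cold 4, control cold 4 and control RT 2 and lowest in control cold 3 and control RT 1. The part of either in the spread was not tested. Summed adipocyte markers were at 22761 CPM in KO cold 4, 25602 CPM in control cold 3 and 26207 CPM in control cold 4, inside the range of the cold libraries. Summed fibroblast markers (8 genes) were at 529 to 627 CPM in KO cold, 494 to 1436 CPM in control cold, 648 to 1332 CPM in KO RT and 843 to 906 CPM in control RT, with the lowest value of all in control cold 3. Summed macrophage markers (10 genes) were at 131 to 189 CPM in KO cold, 131 to 315 CPM in control cold, 135 to 193 CPM in KO RT and 160.0 to 221 CPM in control RT, and were lowest of their groups in KO cold 4 and control cold 3. No gene of either list was at 0 over a group, and the part of these cells in the spread was not tested. Control RT 1 had the highest summed skeletal muscle markers of all libraries, 1786 CPM, against 21.1 CPM in control RT 2, and the part of this in the difference between those libraries was not tested.

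**Figure D3:**
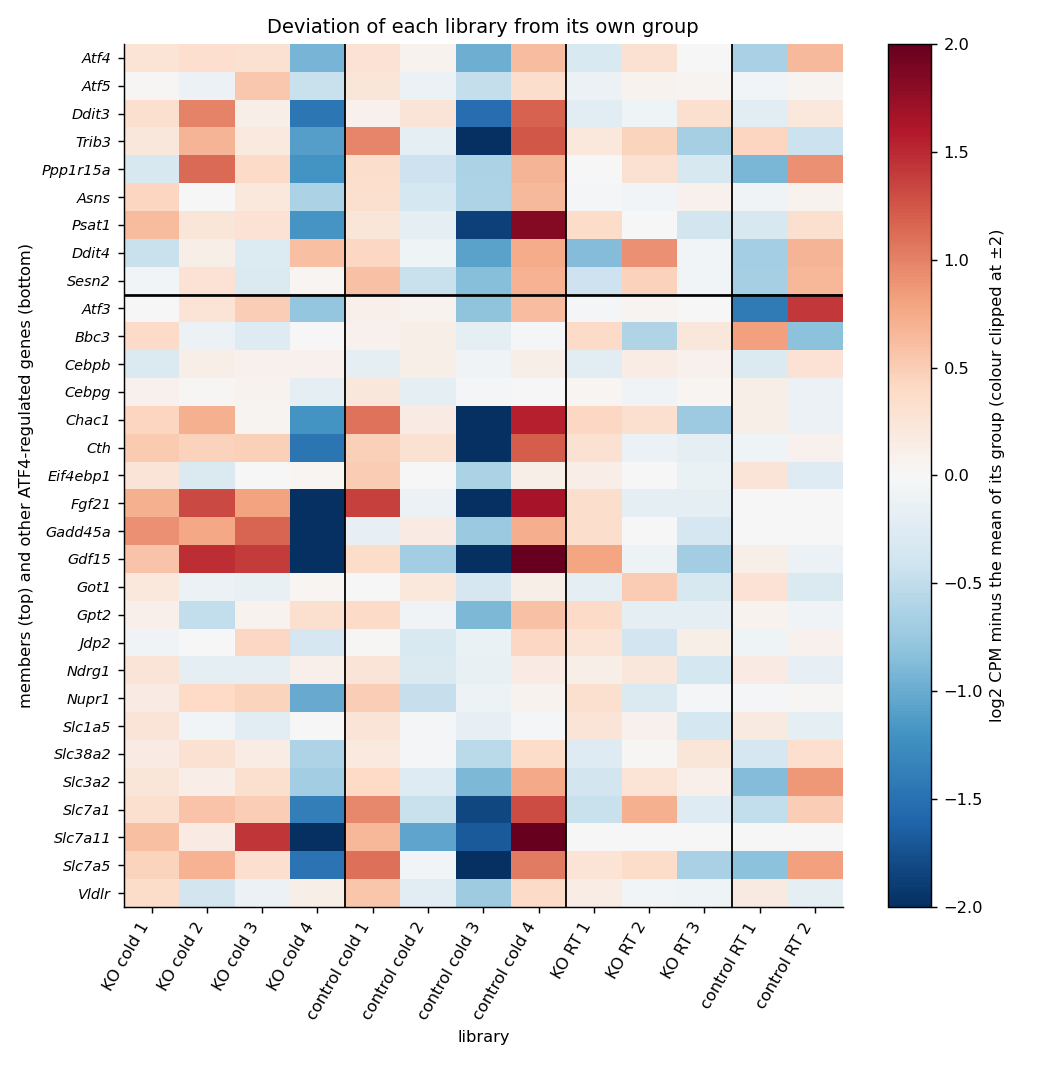
Deviation of each library's log2 CPM from the mean of its own group, for the 9 tested members above the black line and 22 other ATF4-regulated genes below it (colour clipped at ±2; vertical lines part the groups KO cold, control cold, KO RT and control RT). Control cold 3 and KO cold 4 are blue and control cold 4 red across most members, as they are for Chac1, Cth, Gdf15 and Slc7a5.

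The members varied together over libraries. All 36 pairs of tested members had a positive Pearson r of log2 CPM over the 13 libraries (median 0.76, range 0.41 to 0.96), and all 36 stayed positive after subtracting group means (median 0.68, range 0.26 to 0.90). These r values share library preparation and temperature and are given as a description. No share of positive pairs among all tested genes is given beside them. Shifts shared by a whole library were not removed. The genes named below as most like a member are the highest of those searched, likewise without a background. The most alike pair was Ddit4 and Sesn2 (0.96, and 0.89 within groups), and the least alike Ddit3 and Atf5 (0.41). Among 6390 other genes of at least 20 CPM, the pattern of Atf4 was most like those of Slc38a2, an amino acid transporter (0.98, and 0.95 within groups), Gtpbp4 (0.97, and 0.93 within groups) and Med13 (0.97, and 0.96 within groups). The genes most like Ddit4 were Srp72, Sesn2 and Pla2g7 (0.96 each), and those most like Sesn2 were Plekhm2, Srp72 and Ddit4 (0.96 to 0.97). Those of Asns were Phf10, Tars, the threonyl-tRNA synthetase gene, and Pum3 (0.95 to 0.97). For Trib3 they were Gabpa, Sox17 and Eprs, the glutamyl-prolyl-tRNA synthetase gene (0.95 to 0.96), for Atf5 Eif3c, Tbc1d15 and Sec31a (0.96 to 0.97), for Ddit3 Rif1, Tmem167b and Spg20 (0.88 to 0.95), and for Ppp1r15a Snhg12, Stx5a and Mertk (0.93 each).

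Other genes known to be regulated by ATF4 were also higher in cold for the most part. Of 29 listed, 22 were tested. In KO 12 rose and 2 fell in cold (median 1.26), and in control 13 rose and 2 fell (median 1.12, unchanged with Fgf21 and Slc7a11 set against a floor of 3 counts). Of all tested genes 9.43% rose and 9.45% fell in KO, and 12.7% rose and 12.6% fell in control. Without KO RT 1 the KO count of rises in the list was 7, where calls over all tested genes dropped from 2090 to 1215. The control count dropped without control RT 1, which leaves 1 control RT library. Got1, the cytosolic aspartate aminotransferase gene, rose in both genotypes in all 18 alternatives. It was at 171, 136, 133 and 152 CPM in the KO cold libraries, 224, 258, 177 and 242 CPM in the control cold libraries, 11.7, 19.5 and 10.5 CPM in the KO RT libraries and 25.7 and 16.9 CPM in the control RT libraries. Cold against RT gave 3.42 ± 0.22 in KO (q = 1.42e-07) and 3.38 ± 0.25 in control (q = 8.20e-07). Cth, which makes cysteine from cystathionine, was at 146, 139, 141 and 36.1 in KO cold, at 143, 127, 24.8 and 239 in control cold, at 18.7, 13.8 and 13.1 in KO RT and at 10.6 and 12.1 in control RT (all CPM), and it rose in both genotypes (2.92 ± 0.60, q = 0.00280 in KO; 3.56 ± 0.74, q = 0.00258 in control). The amino acid transporter subunit gene Slc3a2 rose as well (2.54 ± 0.40, q = 0.000412 in KO; 2.27 ± 0.47, q = 0.00261 in control, but 0.0529 without control RT 1). Slc1a5, a glutamine transporter gene, fell in both genotypes (-1.51 ± 0.16, q = 1.01e-05 in KO; -1.91 ± 0.17, q = 3.93e-06 in control). The others to fall were Eif4ebp1 in KO (-0.81 ± 0.20, q = 0.0101, but 0.0539 without KO RT 1) and the pro-apoptotic gene Bbc3 in control (-1.55 ± 0.37, q = 0.00640, but 0.551 without control RT 1).

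Fgf21, the hormone gene, had 166 counts in KO cold and 1 in KO RT (ratio 131, 95% counting interval 23.3 to 5223), and 227 counts in control cold and 0 in control RT (45.4-fold against a floor of 3 counts over the group, with a lower 95% counting limit of 36.6-fold). Counting intervals here leave out the spread between libraries. The edgeR test, which includes that spread, called Fgf21 in cold against RT in control (q = 0.00919). The cold libraries of Fgf21 were at 25.1, 39.1, 27.00 and 1.13 CPM in KO and 55.9, 19.2, 1.86 and 67.8 CPM in control. KO cold 4 and control cold 3 were again the lowest of their groups. Gdf15, another secreted stress factor, was at 35.5, 67.8, 64.1 and 1.13 CPM in the KO cold libraries and 42.6, 19.8, 5.58 and 211 CPM in the control cold libraries, with the same libraries lowest. Chac1, which degrades glutathione, was at 33.7, 41.2, 25.9 and 10.2 CPM in the KO cold libraries and 33.98, 17.3, 1.24 and 47.3 CPM in the control cold libraries, against 3 counts in all in control RT (ratio 31.2, 95% counting interval 10.5 to 153). In cold against RT in control, edgeR gave 4.99 ± 1.54 for Gdf15 (q = 0.0264) and 4.86 ± 1.19 for Chac1 (q = 0.00713). Gdf15 was called in 14 of 18 alternatives in control and in 13 of 18 in KO. The control call of Chac1 did not hold without control RT 1, which leaves 1 control RT library. Over the 22 tested genes, KO cold 4 was lowest of its group in 14 and control cold 3 in 17.

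Between genotypes in cold, 0 of these 22 genes were higher and 2 lower by edgeR and by DESeq2, with 6 unadjusted p under 0.05. Atf3, a factor induced by many stresses, was at 3.67, 4.695, 5.63 and 1.69 CPM in the KO cold libraries and 18.4, 17.9, 9.29 and 26.8 CPM in the control cold libraries (-2.17 ± 0.50, q = 0.0163, but 0.0514 without KO cold 4). Got1 differed by -0.61 ± 0.16 (q = 0.0308, up to 0.0942 without 1 of control cold 1, 2 or 4 or KO cold 2, 3 or 4). Without KO cold 4 the counts were 2 higher and 0 lower. At RT and in the difference of cold responses edgeR and DESeq2 each called 0 of 22, with 1 and 3 unadjusted p under 0.05.

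Of 13 genes of tRNA charging, 12 aminoacyl-tRNA synthetases and the tRNA exporter Xpot, 10 rose in cold in KO and 9 in control, and 0 fell (medians 1.11 and 0.96). The share of all tested genes that rose was 9.43% in KO and 12.7% in control. Without KO RT 1 the KO count of this list was 7, where calls over all tested genes dropped too. The control count dropped without control RT 1, which leaves 1 control RT library. Aars averaged 55.9 ± 17.9 CPM in KO cold, 59.3 ± 18.2 CPM in control cold, 22.5 ± 4.67 CPM in KO RT and 22.5 ± 3.17 CPM in control RT (SD, n = 4, 4, 3 and 2). It rose by 1.31 ± 0.28 in KO (q = 0.00388) and by 1.40 ± 0.33 in control (q = 0.00549, but 0.0812 without control RT 1), and Iars by 1.11 ± 0.24 (q = 0.00359) and 1.27 ± 0.27 (q = 0.00321). Between genotypes in cold edgeR and DESeq2 called 0 of the 13, with 0 unadjusted p under 0.05, and the values lay between -0.34 and 0.22.

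The serine and one-carbon genes behaved less uniformly. Of 7 tested, 2 rose in cold in KO, Mthfd2 and Shmt2, and 2 in control, Mthfd2 and Shmt1. The share of all tested genes that rose was 9.43% in KO and 12.7% in control. Mthfd2, a mitochondrial folate enzyme, was at 99.8, 87.6, 134 and 10.7 CPM in the KO cold libraries, 141, 61.8, 11.2 and 213 CPM in the control cold libraries, 8.104, 9.75 and 5.77 CPM in the KO RT libraries and 10.6 and 12.7 CPM in the control RT libraries. KO cold 4 and control cold 3 lay at the RT level while the other 6 cold libraries were at 61.8 CPM or more. Its rise was 3.39 ± 0.86 in KO (q = 0.0113) and 3.19 ± 0.95 in control (q = 0.0214). The control call was lost with the replicate block and without control RT 1 or 2 (q up to 0.153). Shmt2, the mitochondrial serine hydroxymethyltransferase gene, was at 19.6, 24.00, 20.3 and 9.03 CPM in the KO cold libraries and 6.91, 8.65, 4.34 and 8.47 CPM in the control cold libraries. It was higher in KO cold (1.36 ± 0.29, q = 0.0113) in all 18 alternatives. Mthfd1 was also higher there (0.67 ± 0.16, q = 0.0237, up to 0.0687 without 1 of control cold 2 or 3 or KO cold 1, 3 or 4). Shmt1 rose with cold in control by 0.70 ± 0.24 (q = 0.0453), a call lost in 11 of 18 alternatives.

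Genes upstream of ATF4 and of the neighbouring arms gave other counts. Of 17 genes for eIF2, its kinases and eIF2B, edgeR and DESeq2 each called 0 higher and 1 lower between genotypes in cold, with 4 unadjusted p under 0.05. By edgeR Eif2b3 was lower in KO cold than in control cold (-0.96 ± 0.23, q = 0.0226, up to 0.0667 without 1 of control cold 1 or 4 or KO cold 1, 2 or 3). Eif2ak3, which encodes the ER stress kinase PERK, averaged 26.7 ± 7.69 CPM in KO cold against 17.7 ± 3.72 CPM in control cold (SD, n = 4 each) and did not pass (0.61 ± 0.22, q = 0.111). In cold against RT, Eif2s2 and Eif2b4 rose in KO, 2 of 17, where 9.43% of all tested genes rose (12.7% in control). In control Eif2s2, Eif2b3, Eif2b4 and Eif2b5 rose and Eif2ak2, the gene of the kinase that senses double-stranded RNA, fell. These rises did not hold without control RT 1, which leaves 1 control RT library. Of 20 genes of the ATF6 and XBP1 arms, which supply ER chaperones, 13 were higher in KO cold than in control cold (median 0.97, and 8 genes without KO cold 2) and 0 lower by both tools. Over all tested genes edgeR called 2.44% higher and 3.49% lower there. Of the 9 ATF4 members 0 were called, with Ddit3 at 1.38 ± 0.44 and Ddit4 at 1.17 ± 0.36. The lists were chosen with earlier results of these data known, and the difference between them was not tested. Hspa5, which encodes the ER chaperone BiP, differed by 0.999 ± 0.23 (q = 0.0165). In cold against RT 15 of these 20 ATF6 and XBP1 genes rose in KO and 4, Atf6, Canx, Manf and Dnajb9, in control. The control rises did not hold without control RT 1, which leaves 1 control RT library. In the difference of these responses edgeR called 0 of 20, with 12 unadjusted p under 0.05, and DESeq2 called 2 higher. Of 10 mitochondrial chaperone and protease genes Hspd1, Hspe1, Hspa9 and Dnaja3 rose with cold in each genotype, and edgeR called 0 between genotypes in cold, with 1 unadjusted p under 0.05, where DESeq2 called 1 lower. Of 11 tested bZIP genes whose products can pair with ATF4 or its relatives, edgeR called 0 higher and 1 lower between genotypes in cold, with 5 unadjusted p under 0.05, and DESeq2 called 1 higher and 1 lower. By edgeR Jund was lower in KO cold than in control cold (-0.77 ± 0.16, q = 0.0105), in all 18 alternatives.

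**Figure D4:**
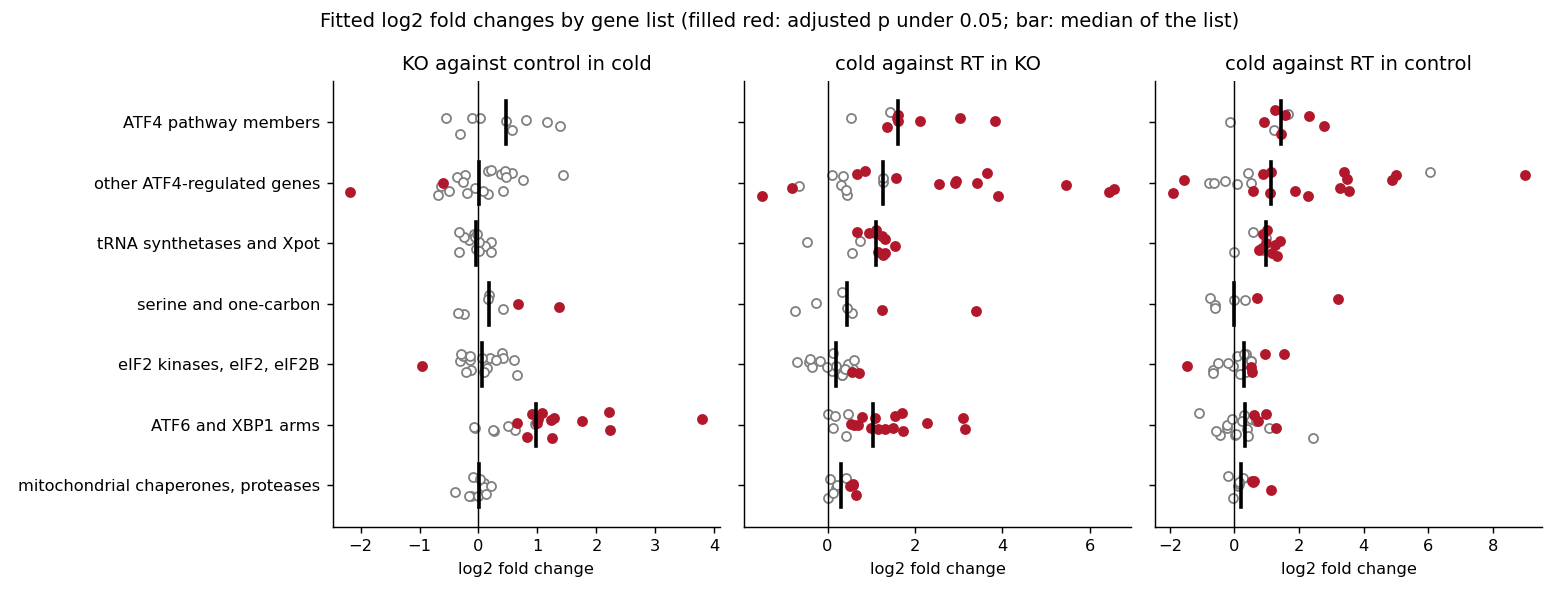
Fitted log2 fold changes of the tested genes of 7 lists in 3 contrasts; points are genes, filled red where the threshold was passed, and black bars are list medians (horizontal scales differ). In KO against control in cold the ATF4 members have a median of 0.47 with 0 red points, and 13 of 20 genes of the ATF6 and XBP1 arms are red. The lists were chosen with earlier results known, and the difference between them was not tested. In both cold against RT panels most members are red and right of 0.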

How the data were processed

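Brown adipose tissue of mice was profiled in 13 libraries of tags from the 3′ ends of mRNAs, per the labels' protocols. The authors deposited 1 table of raw counts per gene, with no normalization. Per the submitters' processing notes the tools were STAR 2.7.10b, HTSeq 0.12.3, UMI-tools 1.1.2 and Trim Galore 0.6.7, besides limma and edgeR, with genome GRCm39 and Ensembl 103. The sources used here do not say whether UMIs were collapsed or strand was used. A tag at the 3′ end gives a level that does not grow with gene length but depends on the 3′ end used. Libraries held 1570684 to 2016178 counts, and replicates of a group correlated at 0.938 to 0.975.

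Of 55632 table lines, 275 repeated an identifier and were dropped, leaving 55357. Genes were kept with edgeR's filterByExpr (minimum count 10), which left 11073. One edgeR 4.0.16 quasi-likelihood fit (R 4.3.3, TMM scaling) of all 13 libraries with a coefficient per group gave every comparison, with Benjamini-Hochberg adjustment over 11073 genes and a threshold of 0.05. The standard error is the log2 fold change over the root of F. CPM use the TMM-scaled sums of the tested genes. Correlations use log2 CPM with a prior count of 2. The fit was tested on simulated data. Alternatives were DESeq2 1.42.0, relative log expression scaling, no filter, only the compared groups, a replicate block, and leaving out each library. Counting intervals are 95% and, like the floor of 3 counts, cover counting error only.

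The members and lists were chosen with earlier results of these data known. Named genes are the members, Stim1 and Stim2, the genes of each list past the threshold (otherwise up to 4 with the smallest p) in KO against control in cold, cold against RT in control and the difference of cold responses, and for each member past the threshold the 3 genes of at least 20 CPM most like it. Eif4ebp1, Hspa4l and Pcsk6 were named after their values were seen. Promoters came from RefSeq on GRCm38.p6 and overlaps from GENCODE M21, so no coordinate was converted to the authors' build.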

Additional observations from a re-analysis of the deposited data

Results flagged for a closer look

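Atf4 in the KO cold group had 1 library far from the other 3. KO cold 4 was at 233 CPM, where KO cold 1, 2 and 3 were at 535, 558 and 548 CPM. Its gap to the nearest library was 0.928 of the group's range, above Dixon's 95% critical value for 4 samples. The rule was applied to 18 groups of 4 (9 members in KO cold and control cold), and chance flags about 1 in 20 groups. Without KO cold 4, KO against control in cold was at -0.09 for Atf4, and cold against RT in KO was at 1.58 (edgeR, adjusted p = 0.00378).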

How the results depend on the processing

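Of the member values recomputed under up to 18 alternatives, 715 kept direction and side of the threshold, 35 lost a call, 18 gained one and 33, none of them of a called value, changed sign. Leaving out single libraries moved these uncalled log2 fold changes across 0. For KO against control in cold the ranges were -0.15 to 0.27 for Asns, -0.33 to 0.0151 for Atf5 and -0.92 to 0.37 for Psat1. At RT they were -0.63 to 0.68 for Atf4, -0.16 to 1.27 for Ddit4, -0.63 to 1.55 for Ppp1r15a, -0.68 to 0.0311 for Psat1, -0.80 to 0.63 for Sesn2 and -0.64 to 0.33 for Trib3. For cold against RT in control Ddit3 ran from -0.61 to 0.19. In the difference of cold responses the ranges were -0.99 to 0.31 for Atf4, -0.0948 to 1.33 for Ddit4, -0.98 to 1.20 for Ppp1r15a, -0.58 to 0.70 for Psat1 and -0.15 to 1.28 for Sesn2. The causes were not tested.

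The replicate block put Atf4 at RT at 0.0525 and Ddit3 in cold against RT in control at 0.0191. The numbers were not taken to pair the samples: deviations of same-numbered libraries correlated between -0.227 and 0.333 over the 6 pairs of groups, and no pair of groups had every correlation over 0.1. KO cold with control cold gave 0.138, -0.0824, 0.0529 and -0.163, and KO RT with control RT gave 0.333 and -0.0130. With the block, 1 member, Ddit4, was called in KO against control in cold and 0 genes in the difference of cold responses.

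Leaving out 1 library gave 0 to 2 called members in KO against control in cold, 4 to 8 in cold against RT in KO and 1 to 7 in cold against RT in control. Over all genes it gave 393 to 729 calls in KO against control in cold (657 with all libraries, fewest without KO cold 4), 0 to 3 at RT (0), 1215 to 2227 in cold against RT in KO (2090, fewest without KO RT 1), 1052 to 2822 in control (2793, fewest without control RT 1) and 0 to 4 in the difference (2). Where a group is left with 1 library, that library is assumed to vary like the others. With only the compared groups, cold against RT in control gave 1683 calls, and KO against control in cold gave 1 member. DESeq2 gave 3 calls at RT and 29 in the difference. Without a filter on low counts the calls were 50 at RT and 133 in the difference, with 3 members (Ddit3, Ddit4 and Trib3) in KO against control in cold and 1 (Ddit3) in the difference. The log2 fold changes of these 3 in cold hardly moved (1.38, 1.18 and 0.81), so their low q do not reflect larger differences. The causes were not tested. Phgdh, at 0 to 8 counts a library, and Ppp1r15a, at 6 to 90, are limited by their low counts, whose cause was not tested either.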
